A study of Glycine max with 20 samples.

Results

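The class III peroxidase family of soybean was followed in developing seeds of the cultivar Williams. Members were picked by a rule on the annotation, set with earlier results of these data known. They were the primary cDNA models whose Pfam domain was Peroxidase and whose Arabidopsis description held 1 of a few names. These names were peroxidase superfamily protein, peroxidase 2, peroxidase CB and root hair specific. This gave 189 members out of 55912 primary models. Of these, 176 were described as peroxidase superfamily protein, 7 as peroxidase 2, 4 as ascorbate peroxidase 2 and 2 as root hair specific 19. The words of the rule also take in the 4 ascorbate peroxidase models, which belong to class I and not to class III, so they were kept in the counts and are named wherever a result includes them.

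Class III peroxidases are secreted haem enzymes of plants that use hydrogen peroxide to oxidise phenolic compounds. In the cell wall they couple lignin monomers, cross-link wall proteins and can also produce reactive oxygen. Ascorbate peroxidases, by contrast, work inside the cell and remove hydrogen peroxide with ascorbate. The soybean seed coat is known for an abundant peroxidase controlled by the Ep locus, which could not be matched here to a model of the table.

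Seed coats and cotyledons were dissected from greenhouse-grown seeds of 25 to 50 mg (early, SC25 and C25) and 100 to 200 mg fresh weight (mid, SC100 and C100), and cotyledons also from seeds of 300 to 400 mg (late, C300). All seeds were untreated and of the same cultivar, and several beans were ground together for each extract. Ribosome footprint (FP) libraries hold the RNA fragments left after micrococcal nuclease digestion of ribosome-bound RNA, and control (CT) libraries hold chemically fragmented total RNA of the same powdered tissue. The 18 libraries used were replicates 1 and 2 of SC100, SC25, C25, C100 and C300 CT and of SC100, SC25 and C25 FP, with replicate 1 alone of C100 FP and C300 FP, so these 2 footprint groups have no replicate check and no test.

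The deposited values are counts of alignments per model, and a library summed to between 7205928 and 32562521 counts. Levels are given in RPKM, the count scaled to the length of the cDNA and to the library total, and 3 counts on a 1 kb model corresponded to between 0.0921 and 0.416 RPKM. These floors cover counting error only. The seed coat identity was checked with 16 flavonoid and proanthocyanidin models, whose summed RPKM was between 105 and 384 in the seed coat CT libraries and between 0.344 and 2.51 in the cotyledon CT libraries. Cotyledon identity was checked with 19 storage protein models, whose summed RPKM was between 22.6 and 398 in seed coat CT and between 4252 and 19023 in cotyledon CT. Storage models therefore carried counts in seed coats too, with 398 in SC25 CT replicate 1 and 22.6 in replicate 2. Some libraries stood apart. SC100 CT replicate 1 had counts on 41713 models and replicate 2 on 67873, and 43 and 90 members had counts in them. C25 FP replicate 2 had a summed seed coat marker level of 36.4 RPKM, and C25 FP replicate 1 had 0.658. The part of these differences in the results was not tested, and results that rest on these libraries are described with and without them. In whole tissues, fewer cells of a type and less RNA per cell cannot be told apart.

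Most of the family was silent or nearly so in seeds. No count was found in any of the 18 libraries for 51 of the 189 members, and 151 stayed below 1 RPKM in every group mean. A mean of at least 1 RPKM was reached by 38 members in at least 1 group. In CT, 25 members were at this level in SC100, 27 in SC25, 17 in C25, 10 in C100 and 10 in C300. These are 13.2%, 14.3%, 8.99%, 5.29% and 5.29% of the family, and for all primary models the shares at this level were 23.2%, 28.1%, 26.6%, 13.7% and 14.4% of the same groups. Of the 38 members at this level, 30 had their highest CT mean in a seed coat group (13 in SC100 and 17 in SC25), against 8 in a cotyledon group (6 in C25, 0 in C100 and 2 in C300). The seed coat thus held the highest mean of 78.9% of these members, and of 53.6% of the 22025 primary models at this level. Both shares are on library totals and would move with another scaling.

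**Figure D1:**
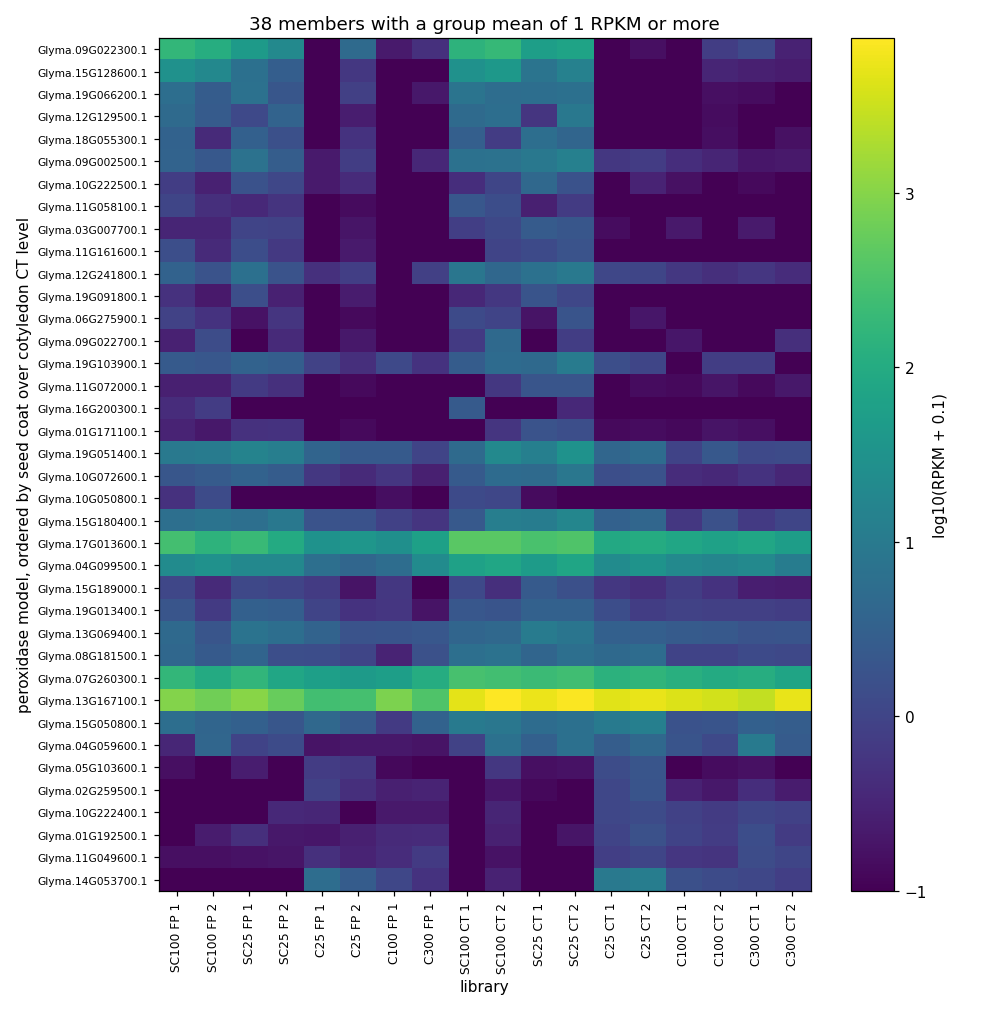
Levels of the 38 members with a group mean of at least 1 RPKM, as log10(RPKM + 0.1), in 18 libraries. Rows are ordered by the seed coat level over the cotyledon level in CT, columns run through FP and then CT with replicates 1 and 2 apart, and light cells are high levels. The rows at the top are light in seed coats and dark in C25 CT and C25 FP replicate 1, and lighter in C25 FP replicate 2.

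A single model held most of the family's counts. Glyma.13G167100.1, described as a peroxidase superfamily protein, had 4909 and 7713 RPKM in the SC100 CT replicates and 5631 and 7106 RPKM in the SC25 CT replicates. In cotyledon CT it had 4646 and 5408 RPKM in C25, 4319 and 3550 RPKM in C100, and 2774 and 5208 RPKM in C300. Its counts were thus high in both tissues at every stage, and it took between 83.0% and 97.1% of all member counts in each CT library. In FP it had 950 and 671 RPKM in SC100, 1054 and 559 RPKM in SC25, 250.0 and 276 RPKM in C25, 841 RPKM in C100 and 341 RPKM in C300. Its share of member counts in FP was between 57.8% and 89.8%. The tissue difference did not pass the test at either stage. Its log2 fold change was 0.40 ± 0.71 for SC25 over C25 in CT (SE, adjusted p = 0.758) and -0.20 ± 0.71 for SC100 over C100 (SE, adjusted p = 0.899), both from edgeR's quasi-likelihood test described next. No other model in the whole table had counts within 10% of it in every library, and the locus has 0 other splice models. In C100 CT it stood above the highest of the storage protein models, Glyma.20G148300.1, which had 3611 and 2736 RPKM. The paper removed models in a ribosomal DNA region, falsely annotated as protein models, on the chromosome that this model's name gives. This model was not among those removed, and its distance from that region is not known here. Whether all counts of Glyma.13G167100.1 come from peroxidase RNA was not tested.

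Without this model the family's summed level, on library totals, was highest in seed coats. The sum over the other members was 1036 and 1115 RPKM in SC100 CT and 738 and 926 RPKM in SC25 CT. It was 303 and 358 RPKM in C25 CT, 235 and 194 RPKM in C100 CT, and 239 and 155 RPKM in C300 CT. No seed coat library overlapped a cotyledon library in this sum, which would move with another scaling. A few models made up most of it in SC100 CT. There, Glyma.17G013600.1, Glyma.07G260300.1 and Glyma.09G022300.1 had means of 431, 272 and 166 RPKM, and the mean of the sum was 1076 RPKM. In FP the sum was 729 and 457 RPKM in SC100, 523 and 276 RPKM in SC25, 121 and 109 RPKM in C25, 99.2 RPKM in C100 and 201 RPKM in C300.

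Behind it came models present in both tissues. Glyma.17G013600.1 had 431.2 and 430.7 RPKM in SC100 CT, 299 and 351 RPKM in SC25 CT, 87.4 and 100.1 RPKM in C25 CT, 77.6 and 62.7 RPKM in C100 CT, and 77.6 and 53.3 RPKM in C300 CT. Glyma.07G260300.1 had 287 and 258 RPKM in SC100 CT, 218 and 249 RPKM in SC25 CT, 139 and 158 RPKM in C25 CT, 119.9 and 95.5 RPKM in C100 CT, and 110.4 and 72.0 RPKM in C300 CT. Glyma.04G099500.1, a short model of 549 bases, had 61.9 and 78.4 RPKM in SC100 CT, 48.5 and 74.9 RPKM in SC25 CT, 22.9 and 32.5 RPKM in C25 CT, 19.6 and 16.9 RPKM in C100 CT, and 20.1 and 11.1 RPKM in C300 CT. In all 3, every seed coat library lay above every cotyledon library. On library totals, the order of the group means was SC100, SC25, C25, C100, C300 in each, and the replicates of neighbouring groups overlapped between C100 and C300 in all 3 models and between SC100 and SC25 in Glyma.04G099500.1. The place of C25 above C100 turns with the scale. With TMM, C100 over C25 had a log2 fold change of 0.57 for Glyma.17G013600.1, 0.53 for Glyma.07G260300.1 and 0.41 for Glyma.04G099500.1, none of which passed edgeR's test. All 3 were called higher in C100 when only these 4 libraries were fitted (adjusted p = 0.0042, 0.00908 and 0.0136 by edgeR). That setting called 11.3% of all models higher and 8.87% lower. Glyma.07G260300.1 shared its counts with a splice model of its own locus, Glyma.07G260300.4, whose count was within 10% in every library.

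**Figure D2:**
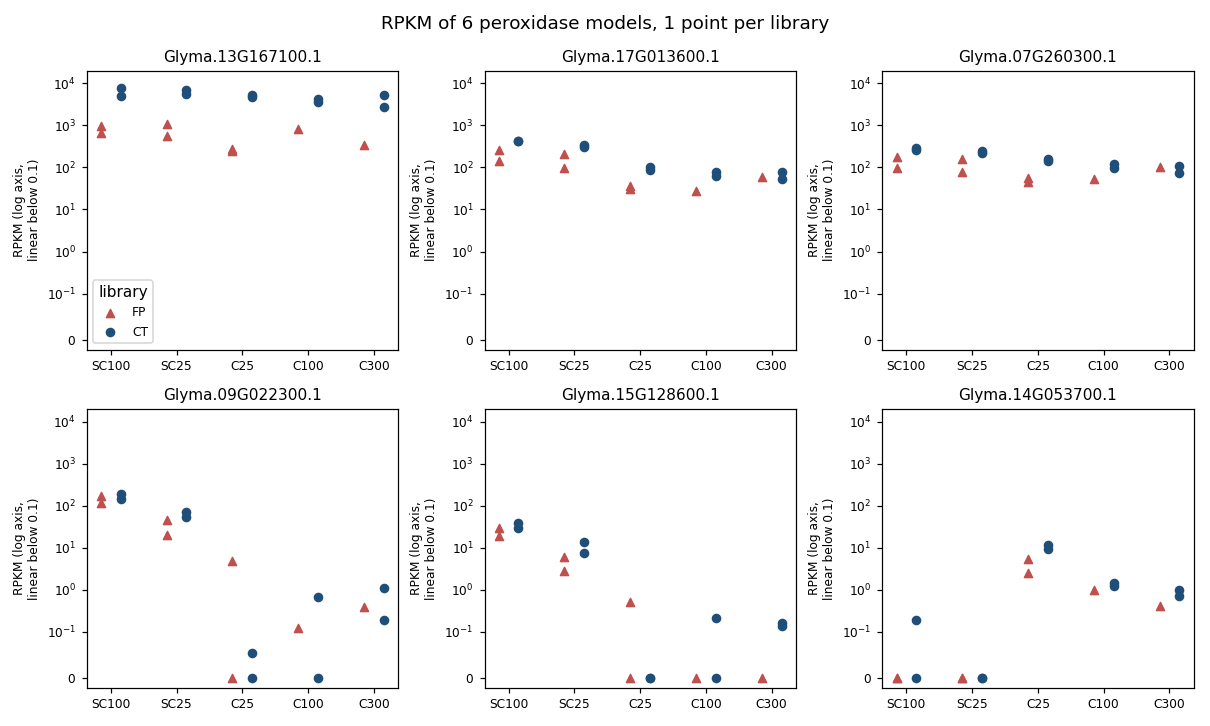
RPKM of 6 peroxidase models on a log axis that is linear below 0.1, with 1 point per library, triangles for FP and circles for CT. Glyma.13G167100.1 lies between 2774 and 7713 RPKM in CT and between 250.0 and 1054 RPKM in FP, Glyma.09G022300.1 and Glyma.15G128600.1 are above 2 RPKM in every seed coat library and at most 1.08 RPKM in cotyledon CT, and Glyma.14G053700.1 is highest in C25.

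Seed coats were then compared with cotyledons of the same stage in CT, to ask which peroxidases differ between the maternal seed coat and the embryo. Counts were tested across all 68848 models with at least 10 counts summed over the 10 CT libraries, with edgeR's quasi-likelihood test after TMM normalisation (two-sided) and Benjamini-Hochberg adjustment over all of them, and 73 of the 189 members were among these models. A member that passed this filter through 1 group alone is high there by construction. Log2 fold changes are on the TMM scale and RPKMs on library totals, so the 2 need not give the same ratio.

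In the early seed coat, SC25 against C25, 16 members were higher and 7 were lower at an adjusted p under 0.05, and 50 did not pass. Across all models tested, 6.51% were higher and 5.05% were lower, against 21.9% and 9.59% of the 73 members. The median log2 fold change was 2.26 over the members and -0.18 over all models, or 1.26 and -0.14 when a model at 0 in 1 group was set to the bound that 3 counts in each library allow. Of the 4 ascorbate peroxidase models, edgeR's test called 0 and DESeq2 called Glyma.10G072600.1 (adjusted p = 0.0623 by edgeR and 0.0255 by DESeq2) and Glyma.19G051400.1 (0.0716 and 0.0327) higher in SC25, as did edgeR with either SC25 CT library left out. Without either C25 CT library, fewer members and a smaller share of all models were called. Without SC25 CT replicate 2, more members and a larger share of all models were called.

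The largest of these differences was that of Glyma.09G022300.1, the only abundant model described as peroxidase 2. It had 54.6 and 69.3 RPKM in SC25 CT, against 0 and 0.0552 RPKM in C25 CT. The log2 fold change was 10.99 ± 1.18 (SE, adjusted p = 8.83e-06). It rested on 3106 counts in SC25 and 1 count in C25, a ratio of 2470-fold after scaling to library totals, with a 95% exact interval of 443 to 97602. This interval and those below cover counting error only, and the replicates differed by more than that, with a chi-square per degree of freedom of 88.8 between the SC25 CT libraries and 65.0 between the C25 CT libraries. The replicates of the tissues did not overlap. The other 6 models described as peroxidase 2 had at most 93 counts each over all 18 libraries.

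Of the other members that were higher, 6 had no count in either C25 CT library. Glyma.15G128600.1 had 7.399 and 13.8 RPKM in SC25 CT and was at least 34.6-fold higher than in C25 (adjusted p = 1.31e-05). Glyma.19G066200.1 had 5.72 and 6.40 RPKM in SC25 CT and was at least 38.1-fold higher (adjusted p = 3.66e-05). Glyma.18G055300.1 had 5.64 and 3.77 RPKM and was at least 31.8-fold higher (adjusted p = 0.000848). In each of these 3 members both SC25 replicates stood well above C25. In contrast, Glyma.12G129500.1 had 0.457 and 8.79 RPKM in SC25 CT, so its replicates lay far apart, and its mean was at least 35.2-fold above C25 (adjusted p = 0.00178). Glyma.19G091800.1 and Glyma.11G161600.1 were at least 11.3-fold and 9.60-fold higher (adjusted p = 0.0115 and 0.0386). All bounds set 3 counts in each library of the group at 0.

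Members that both tissues expressed also differed. Glyma.17G013600.1 was higher in SC25 with a log2 fold change of 1.87 ± 0.40 (SE, adjusted p = 0.00525), and Glyma.04G099500.1 was higher with 1.19 ± 0.33 (SE, adjusted p = 0.0277). Glyma.07G260300.1 had a log2 fold change of 0.73 ± 0.39 and did not pass (SE, adjusted p = 0.2504), and was called without SC25 CT replicate 2 (adjusted p = 0.00838). Glyma.09G002500.1 had 9.13 and 13.4 RPKM in SC25 CT, against 0.530 and 0.624 RPKM in C25 CT, a log2 fold change of 4.30 ± 0.46 (SE, adjusted p = 8.25e-06). Its replicates lay close together in both tissues. Glyma.12G241800.1 had 6.67 and 9.33 RPKM in SC25 CT, against 0.994 and 0.973 RPKM in C25 CT (log2 fold change 3.04 ± 0.50, SE, adjusted p = 0.000612). Glyma.13G069400.1 had 10.9 and 7.96 RPKM in SC25 CT, against 3.12 and 2.93 RPKM in C25 CT (1.79 ± 0.45, SE, adjusted p = 0.0147). The remaining 4 that were higher, Glyma.10G222500.1, Glyma.03G007700.1, Glyma.01G171100.1 and Glyma.11G072000.1, had a few counts in C25 CT. Summed over the 18 libraries, the absolute count differences between the last 2 of these were 4.38% of their joint counts. The authors' counting may thus have given the same reads to both, and each level is uncertain.

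In the mid-stage seed coat, SC100 against C100, 12 members were higher and 1 was lower, and 60 did not pass. Across all models 3.84% were higher and 4.78% were lower, against 16.4% and 1.37% of the 73 members. The median log2 fold change was 1.88 over the members and -0.32 over all models, or 1.23 and -0.14 with models at 0 set to their bound. One of the 12 was an ascorbate peroxidase 2 model, Glyma.10G072600.1, with 2.36 and 4.995 RPKM in SC100 CT and 0.321 and 0.272 RPKM in C100 CT (adjusted p = 0.0444). Without SC100 CT replicate 2, more members and a larger share of all models were called. Fewer members and a smaller share of all models were called without SC100 CT replicate 1 (the library with counts on fewer models). The same held without either C100 CT library.

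Glyma.09G022300.1 led here too, with 146 and 185 RPKM in SC100 CT and 0 and 0.659 RPKM in C100 CT. Its log2 fold change was 8.14 ± 0.94 (SE, adjusted p = 2.71e-05). The size of the fold rests on the few C100 counts, since it was 6.90 without C100 CT replicate 1 and 14.53 without C100 CT replicate 2, which leaves C100 at 0. Glyma.15G128600.1 had 29.3 and 39.5 RPKM in SC100 CT, against 0 and 0.216 RPKM in C100 CT (adjusted p = 1.31e-05). The 401 counts in SC100 and 2 counts in C100 gave a ratio of 380-fold after the same scaling, with a 95% exact counting interval of 104 to 3148. Both models were thus high in each SC100 replicate and at or near 0 in each C100 replicate. Glyma.19G066200.1 had 7.52 and 5.40 RPKM in SC100 CT and 0 and 0.0560 RPKM in C100 CT (adjusted p = 0.000248). Glyma.12G129500.1 had 4.82 and 5.82 RPKM in SC100 CT and 0 and 0.0463 RPKM in C100 CT (adjusted p = 0.00479), and this call was lost without C100 CT replicate 1. Glyma.11G058100.1 had 1.98 and 1.36 RPKM in SC100 CT and no count in C100 CT, at least 12.4-fold higher (adjusted p = 0.0306). It was not called without SC100 CT replicate 1, without C100 CT replicate 1 or without C100 CT replicate 2. The 2 stages shared further members, among them Glyma.17G013600.1 (log2 fold change 1.73 ± 0.40, SE, adjusted p = 0.0106), Glyma.09G002500.1, with 6.68 and 6.75 RPKM in SC100 CT and 0.343 and 0.220 RPKM in C100 CT (adjusted p = 7.85e-05), and Glyma.12G241800.1 (adjusted p = 0.00171). Glyma.08G181500.1 was called at the mid stage only, with 5.94 and 6.83 RPKM in SC100 CT and 0.846 and 0.862 RPKM in C100 CT (log2 fold change 2.00 ± 0.44, SE, adjusted p = 0.00705). Glyma.04G099500.1 had a log2 fold change of 1.05 ± 0.34 and did not pass edgeR's test (SE, adjusted p = 0.0643), but it was called higher by DESeq2 (adjusted p = 0.0323), on both other scalings and with at least 10 counts in 2 libraries (adjusted p between 0.00616 and 0.029).

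Of the members that were higher in seed coats, 8 were called at both stages, which is 50.0% of the 16 early ones and 66.7% of the 12 mid-stage ones. The 2 comparisons share no library but come from 1 fit. The calls made at 1 stage only were not tested for a difference between stages.

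**Figure D3:**
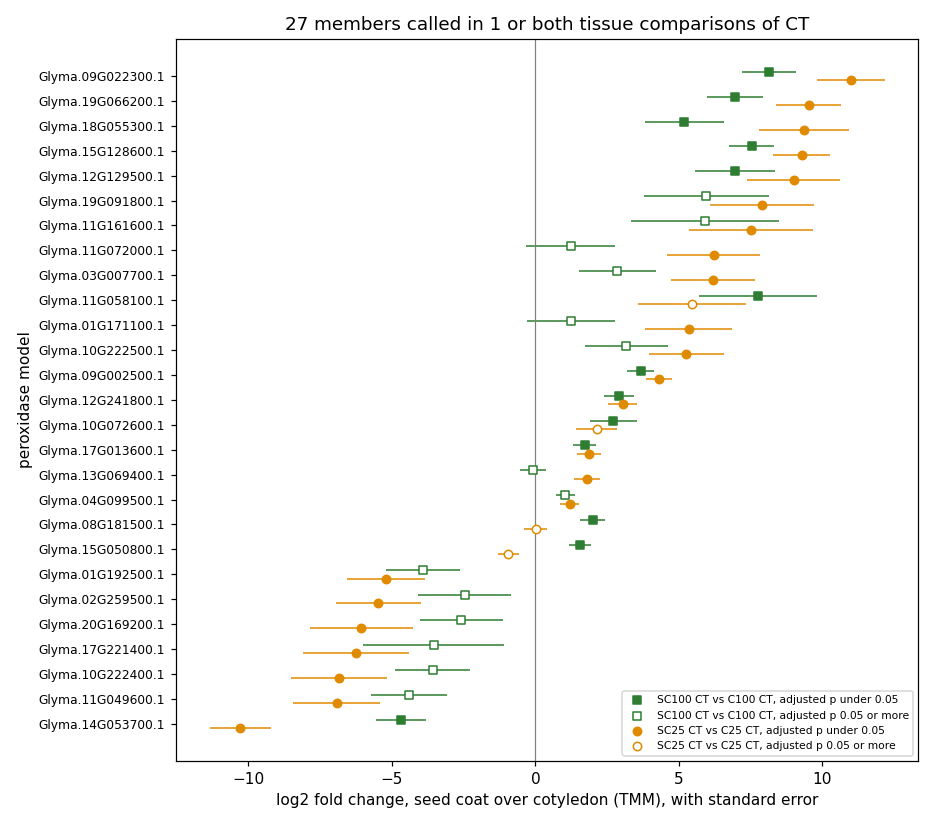
Log2 fold changes of seed coat over cotyledon CT with their standard errors for the 27 members called at 1 or both stages, squares for SC100 over C100 and circles for SC25 over C25, filled where the adjusted p was under 0.05. Glyma.09G022300.1 lies highest at both stages and Glyma.14G053700.1 lowest, and fold changes beyond 5 belong to models at or near 0 in the other tissue.

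A smaller group was found in cotyledons. Glyma.14G053700.1 had no count in either SC25 CT library, against 9.53 and 11.8 RPKM in C25 CT, and was at least 60.7-fold lower in SC25 (adjusted p = 8.76e-06). At the mid stage it had 0 and 0.188 RPKM in SC100 CT, against 1.43 and 1.20 RPKM in C100 CT, with a log2 fold change of -4.69 ± 0.86 (SE, adjusted p = 0.00223). The 2 counts in SC100 and 59 in C100 gave a level 15.6-fold lower in SC100 after scaling to library totals, with a 95% exact counting interval of 4.12 to 131.5. It was the only member called lower in the seed coat at both stages. Its level was 0.996 and 0.698 RPKM in C300 CT, so all cotyledon CT libraries stood above all seed coat CT libraries. The mid-stage call was lost when only the 4 libraries compared were fitted (adjusted p = 0.105).

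The other 6 members that were lower in SC25 were weakly expressed. Glyma.11G049600.1 had 0 counts in SC25 CT and 0.702 and 0.953 RPKM in C25 CT, at least 5.87-fold lower in SC25 (adjusted p = 0.00648). Glyma.10G222400.1 had 0 counts in SC25 CT and 0.998 and 1.22 RPKM in C25 CT, at least 5.53-fold lower (adjusted p = 0.0126). Glyma.17G221400.1 and Glyma.20G169200.1, also at 0 in SC25 CT, were at least 3.69-fold and 3.27-fold lower (adjusted p = 0.0420 and 0.0384). Leaving out 1 library ended the call of each of these 4. Glyma.11G049600.1 was lost without C25 CT replicate 2 alone, and the other 3 were lost without SC25 CT replicate 1, without C25 CT replicate 1 and without C25 CT replicate 2. Glyma.17G221400.1 and Glyma.20G169200.1 were also lost on library totals, with the replicate block (adjusted p = 0.0622 and 0.0549) and when only the 4 libraries were fitted, and Glyma.17G221400.1 by DESeq2. SC25 CT replicate 1, with the storage protein level of 398 RPKM named above, had 0 counts on all 4 and on Glyma.14G053700.1. Glyma.02G259500.1 had 0.0257 and 0 RPKM in SC25 CT, against 1.006 and 1.784 RPKM in C25 CT (adjusted p = 0.0227). The last of the 6 was Glyma.01G192500.1 (adjusted p = 0.0190). All 6 also had negative log2 fold changes for SC100 over C100, and none passed edgeR's test there. The nearest were Glyma.11G049600.1 (-4.40 ± 1.32, SE, adjusted p = 0.0505) and Glyma.01G192500.1 (-3.93 ± 1.29, SE, adjusted p = 0.0708). DESeq2 called Glyma.01G192500.1 lower (adjusted p = 0.0393). Both were called by edgeR without the filter on low counts (adjusted p = 0.0297 and 0.0316).

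By locus name, 70 members lay in 27 runs of consecutive loci, the longest of 5. In 20 of these runs every member stayed below 1 RPKM in all group means, in 6 runs 1 member reached this level, and in 1 run 2 did. The following are runs that hold a member named above, and neighbours were not tested against each other. Glyma.10G222400.1, lower in SC25, adjoins Glyma.10G222500.1, which was higher in SC25 with 4.32 and 1.63 RPKM in SC25 CT and 0 and 0.201 RPKM in C25 CT (adjusted p = 0.0135). In the run of 5 loci on chromosome 15, Glyma.15G128600.1 had a mean of 34.4 RPKM in SC100 CT, and the other 4 had means of at most 0.850 RPKM. In the run of 3 loci on chromosome 9, Glyma.09G022300.1 had a mean of 166 RPKM in SC100 CT, and its neighbours Glyma.09G022400.1 and Glyma.09G022500.1 had 0.659 and 0.584 RPKM. Glyma.18G055300.1 was the only one of its run of 4 with any count, and Glyma.14G053700.1 the only one of its run of 2.

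Development within a tissue was compared next. Between SC100 and SC25 in CT, 0 of 73 members passed edgeR's test, with 14 at an unadjusted p under 0.05 and 0 by DESeq2. Of all models 0.0378% were higher and 0.0581% lower in SC100. Glyma.09G022300.1 had 146 and 185 RPKM in SC100, against 54.6 and 69.3 RPKM in SC25, a log2 fold change of 1.46 ± 0.66 (SE, adjusted p = 0.374). Glyma.15G128600.1 had 29.3 and 39.5 RPKM in SC100, against 7.399 and 13.8 RPKM in SC25. In neither member did the replicates of the stages overlap, and both were called only when models with as little as 1 count were let into the fit (adjusted p = 0.0244 and 0.0247) and, for Glyma.15G128600.1, without SC25 CT replicate 2 (adjusted p = 0.0368). The number called was 4 without SC100 CT replicate 2, where 1.55% of all models were higher and 9.98% lower, and 6 without SC25 CT replicate 2, where 4.68% were higher and 12.5% lower.

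In cotyledons 1 member passed between C100 and C25 and it was lower, against 0.0915% lower and 0.402% higher of all models. This was Glyma.15G050800.1, with 1.59 and 1.73 RPKM in C100 CT, against 10.2 and 13.04 RPKM in C25 CT, and 3.02 and 2.67 RPKM in C300 CT. Its log2 fold change of -1.79 ± 0.38 was near the threshold (SE, adjusted p = 0.0442), and the call was lost without any 1 of the 4 libraries compared. In seed coats the same member had 9.86 and 8.42 RPKM in SC100 CT and 5.13 and 6.25 RPKM in SC25 CT, and it was higher in SC100 than in C100 (log2 fold change 1.55 ± 0.38, SE, adjusted p = 0.0151). Between C300 and C100, 0 of 73 members passed edgeR's test, with 4 at an unadjusted p under 0.05 and 0 by DESeq2, while 0.061% of all models were higher and 0.00581% lower in C300.

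The change of scale matters for the cotyledon stages and for footprints. The median log2 fold change of all models was -0.14 with TMM and -1.12 on library totals for C100 over C25. It was -0.32 with TMM and 0.52 on totals for SC100 over C100, and -0.15 with TMM and -2.50 on totals for FP over CT in C25. RPKMs, which use totals, therefore run lower in FP than in CT for most models of C25, and the fold changes given here are relative to the middle of all models.

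Translational efficiency (TE) was taken as the group mean in FP divided by the group mean in CT, with means under 0.1 RPKM raised to 0.1. For members with a mean CT of at least 1 RPKM the median TE was 0.583 in SC100 (25 members), 0.470 in SC25 (27), 0.342 in C25 (17), 0.449 in C100 (10) and 1.03 in C300 (10). For all primary models at this CT level the medians were 0.370, 0.367, 0.208, 0.317 and 0.571 of the same groups. The TE of C100 and C300 rests on 1 FP library each. These medians are descriptions, and no test was made of them.

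The most abundant model had a low TE, the lowest of the members at this CT level in SC100 and SC25. Glyma.13G167100.1 had a TE of 0.128 in SC100 (0.194 and 0.0870 by replicate), 0.127 in SC25 (0.187 and 0.0786), 0.0523 in C25 (0.0538 and 0.0511), 0.214 in C100 and 0.0855 in C300. Glyma.17G013600.1 had 0.469 in SC100, 0.470 in SC25, 0.360 in C25, 0.393 in C100 and 0.909 in C300. Glyma.09G022300.1 had a TE of 0.857 in SC100 (1.17 and 0.610 by replicate) and 0.528 in SC25 (0.828 and 0.292). For these 3 models the TE of replicate 1 in SC100 and SC25 was above that of replicate 2, so the replicates of the seed coat differ by more than these TEs change between the stages of the seed coat. Glyma.04G059600.1 had the lowest TE of these members in the cotyledon, at most 0.0283 in C25, 0.0757 in C100 and at most 0.0155 in C300, and its TE was 0.562 in SC100 and 0.221 in SC25. The values for C25 and C300 are upper limits, since the FP mean there was under 0.1 RPKM. For Glyma.04G059600.1 the difference of FP over CT between SC25 and C25 did not pass edgeR's test, described below (log2 fold change 1.86 ± 0.95, SE, adjusted p = 0.964). A TE above 1 was found for 5 of 10 members in C300, led by Glyma.04G099500.1 with 1.47, for 1 of 25 in SC100 (Glyma.18G055300.1, 1.02) and for 1 of 10 in C100 (the ascorbate peroxidase 2 model Glyma.19G051400.1, 1.58). Of all primary models at this CT level, 18.8% had a TE above 1 in C300, 1.95% in SC100 and 1.85% in C100.

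**Figure D4:**
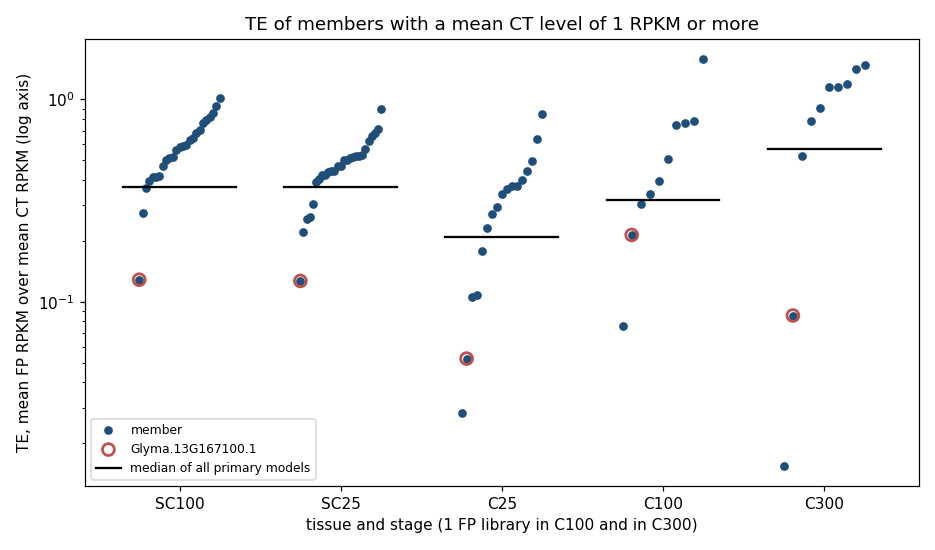
TE on a log axis for members with a mean CT level of at least 1 RPKM, by tissue and stage, with 1 point per member and a bar at the median of all primary models at that level. Glyma.13G167100.1, circled, lies below the bar in each of the 5 groups, and the member below it in C25, C100 and C300 is Glyma.04G059600.1, drawn at its upper limit in C25 and C300.

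FP was tested against CT within each tissue and stage with 2 FP libraries. In SC25, 0 of the 46 members tested passed edgeR's test, with 1 at an unadjusted p under 0.05 and 0 by DESeq2, and of all models 0% were higher and 0.0364% lower in FP. Without SC25 CT replicate 2 the number was 2, against 2.06% higher and 2.97% lower of all models. In SC100, 0 of 47 passed, with 5 at an unadjusted p under 0.05, and of all models 0% were higher and 0% lower. DESeq2 called 3 of them, against 0.844% higher and 0.193% lower of all models. Because FP and CT replicates with the same number came from the same powdered tissue, the fit was also made with the replicate as a block, and 2 members were then higher in SC100 FP, against 1.07% higher and 0.34% lower of all models. These were Glyma.09G022300.1 (log2 fold change 1.27 ± 0.28, SE, adjusted p = 0.00174) and Glyma.15G128600.1 (1.00 ± 0.27, SE, adjusted p = 0.0276). Both were also higher by DESeq2, and the third member called by it was Glyma.13G167100.1, lower in FP with a log2 fold change of -1.48 ± 0.48 (SE, adjusted p = 0.0253). Without SC100 CT replicate 2, which leaves replicate 1 with counts on fewer models as the only CT library, 12 members were called, against 17.4% higher and 7.47% lower of all models. Without SC100 CT replicate 1, 1 was called.

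In C25, 9 of 37 members were higher in FP and 1 was lower, against 6.42% higher and 4.92% lower of all models. On library totals without TMM these became 3 higher and 21 lower (0.712% and 87.9% of all models), and with DESeq2's size factors 4 higher and 2 lower (3.61% and 1.61%). With totals that leave out the 1% most abundant models they were 5 higher and 2 lower (4.36% and 6.66%). The direction of most members thus depended on the scaling. Glyma.04G059600.1 was lower in FP under all alternatives tried, with 0.0821 and 0.104 RPKM in C25 FP, against 2.69 and 4.37 RPKM in C25 CT (log2 fold change -2.78 ± 0.47, SE, adjusted p = 0.00666). Glyma.13G167100.1 had a log2 fold change of -1.84 ± 0.56 and did not pass (SE, adjusted p = 0.0523). It was called lower by DESeq2 (-1.81 ± 0.30, SE, adjusted p = 3.92e-07) and with the replicate block (-1.86 ± 0.69, SE, adjusted p = 0.0497). EdgeR also called it lower on both other scalings, with the other filters and with primary models only (adjusted p between 7.91e-05 and 0.0487). It was not called without either C25 CT library. Glyma.14G053700.1, the cotyledon member, had 5.45 and 2.56 RPKM in C25 FP and 9.53 and 11.8 RPKM in C25 CT. Its log2 fold change was 0.93 ± 0.27 with TMM (SE, adjusted p = 0.0420) and -1.42 on library totals. The ascorbate peroxidase 2 model Glyma.19G051400.1, 273 bases long, had 3.61 and 2.28 RPKM in FP and 4.03 and 5.21 RPKM in CT, with 1.72 ± 0.38 with TMM (SE, adjusted p = 0.0154) and -0.65 on library totals. The number called was 6 without C25 CT replicate 1 and 6 without C25 CT replicate 2. Without C25 FP replicate 2 it was 9 higher and 2 lower, against 9.64% higher and 8.07% lower of all models, and 5 members were called in both fits.

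Among the members called higher in C25 FP, 3 had no count in C25 FP replicate 1. Glyma.09G022300.1 had 0 and 117 counts in C25 FP replicates 1 and 2, against 0 and 1 in C25 CT. Glyma.19G066200.1 had 0 and 17 counts and Glyma.18G055300.1 had 0 and 10 counts in the same FP replicates, against 0 in C25 CT. Of the 10 members that were higher in SC25 CT and had at most 1 count in each C25 CT library, 0 had a count in C25 FP replicate 1 and 10 had one in C25 FP replicate 2. Their summed level was 0 and 6.96 RPKM in C25 FP, against 66.7 and 32.2 RPKM in SC25 FP. C25 FP replicate 2 thus carried 14.1% of the mean SC25 FP level of these members, and it is the library with 36.4 RPKM of seed coat markers. The part of the seed coat markers in these values was not tested.

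**Figure D5:**
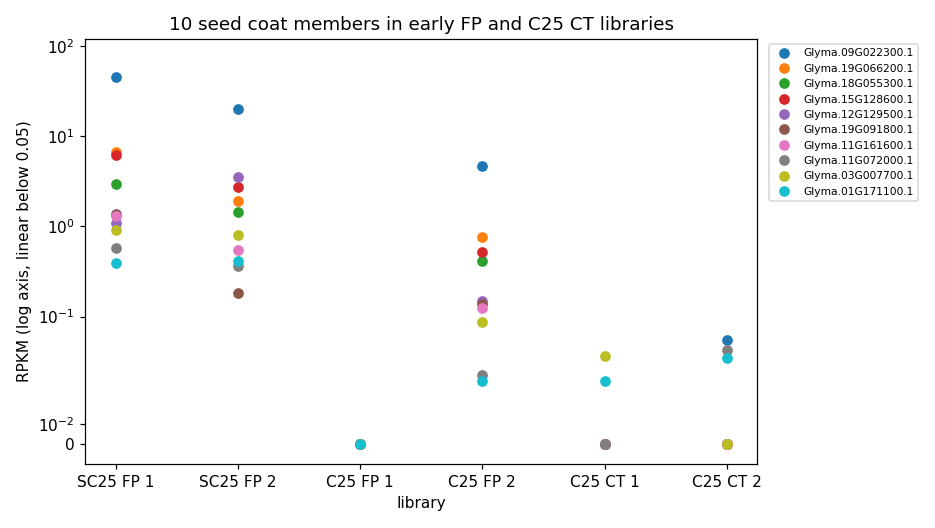
RPKM, on a log axis linear below 0.05, of the 10 members that were higher in SC25 CT and had at most 1 count in each C25 CT library, in SC25 FP, C25 FP and C25 CT. All 10 lie at 0 in C25 FP replicate 1 and above 0 in C25 FP replicate 2, where Glyma.09G022300.1 reaches 4.71 RPKM.

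Footprints of seed coats and cotyledons were compared directly at the early stage. In SC25 FP against C25 FP, 0 of 44 members were higher and 3 were lower, against 1.05% higher and 3.26% lower of all models, with 19 members at an unadjusted p under 0.05. The 3 were Glyma.14G053700.1, Glyma.02G259500.1 and Glyma.05G103600.1. Glyma.14G053700.1 had 0 counts in SC25 FP and 5.45 and 2.56 RPKM in C25 FP, at least 12.9-fold lower in SC25 (adjusted p = 0.00120). Glyma.02G259500.1 had 0 counts in SC25 FP and 0.771 and 0.347 RPKM in C25 FP (adjusted p = 0.0375), and Glyma.05G103600.1, described as root hair specific 19, had 0.145 and 0 RPKM in SC25 FP and 0.652 and 0.516 RPKM in C25 FP (adjusted p = 0.0345). All 3 are thus cotyledon members in footprints, and the first and second were also lower in SC25 CT than in C25 CT. The last 2 were each lost without SC25 FP replicate 1 or replicate 2, and Glyma.05G103600.1 also without either C25 FP library. The number called was 1 without SC25 FP replicate 2 and 1 without C25 FP replicate 1.

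Without C25 FP replicate 2, 6 of 41 members were higher in SC25 FP and 2 were lower, against 4.57% and 3.84% of all models. The 6 were Glyma.09G022300.1, Glyma.15G128600.1, Glyma.19G066200.1, Glyma.09G002500.1, Glyma.12G129500.1 and Glyma.18G055300.1, with adjusted p between 0.000305 and 0.0331. All 6 were also higher in SC25 CT. Glyma.09G022300.1 had 45.2 and 20.2 RPKM in SC25 FP, against 0 and 4.71 RPKM in C25 FP. On library totals without TMM, 15 members were higher and 2 lower in SC25 FP, where 11.6% of all models were higher and 1.32% lower. By DESeq2 2 members were higher and 1 lower, against 517 higher and 1017 lower of all 50963 models.

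Between the stages of the seed coat, SC100 FP against SC25 FP, 0 of 44 members passed edgeR's test, with 6 at an unadjusted p under 0.05 and 0 by DESeq2, and of all models 0% were higher and 0% lower. Glyma.09G022300.1 had 171 and 113 RPKM in SC100 FP, against 45.2 and 20.2 RPKM in SC25 FP (log2 fold change 2.57 ± 1.23, SE, adjusted p = 0.713). Glyma.15G128600.1 had 29.3 and 19.4 RPKM in SC100 FP, against 6.17 and 2.75 RPKM in SC25 FP. The replicates of the stages did not overlap for either member, as in CT.

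The difference of FP over CT between SC25 and C25 was tested as an interaction, which asks whether the ratio of footprints to RNA differs between the tissues. Of 63 members 0 passed edgeR's test, with 12 at an unadjusted p under 0.05 and 0 by DESeq2, and of all models 0% were higher and 0% lower. An alternative edgeR fit gave libraries of the same number a common effect across both tissues, although powder was shared only within a tissue. It therefore did not pair FP with CT by tissue, and its p-values rest on that assumption. In this fit 0.0385% of all models were higher and 0.981% lower in SC25, and 4 members were lower. These were Glyma.09G022300.1, Glyma.15G128600.1, Glyma.18G055300.1 and Glyma.19G066200.1, with adjusted p between 1.86e-11 and 0.0128. The same 4 were called without C25 FP replicate 1, which leaves C25 FP replicate 2 alone, and 0 without C25 FP replicate 2. The number called was 4 without SC25 CT replicate 2, 2 without C25 CT replicate 1 and 2 without C25 CT replicate 2. All 4 had 0 counts in C25 FP replicate 1. For SC100 against SC25, 0 of 66 passed edgeR's test, with 0 at an unadjusted p under 0.05 and 0 by DESeq2, and of all models 0% were higher and 0% lower.

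Genes that work around the peroxidases were counted in the same tests. Of 35 tested models of monolignol synthesis, which makes the lignin precursors that peroxidases couple, 16 were higher and 1 lower in SC25 than in C25, with a median log2 fold change of 2.43, and 9 were higher and 0 lower in SC100 than in C100, with a median of 1.45. Of 23 laccases, which oxidise the same precursors with oxygen, 5 were higher and 0 lower at each stage, with medians of 1.68 and 3.46, or 0.08 and 1.60 with models at 0 set to their bound. Of 14 NADPH oxidases, which produce superoxide at the plasma membrane, 6 were higher and 2 lower early, and 4 higher and 2 lower at the mid stage, with medians of 0.90 and 0.62. Of 51 catalases, superoxide dismutases, peroxiredoxins, glutathione and ascorbate peroxidases, 4 were higher and 5 lower early and 3 higher and 8 lower at the mid stage, with medians of -0.19 and -1.10. The shares of all models called in these 2 comparisons and their medians are those given with the members. The 4 ascorbate peroxidase 2 models were counted with the members and are not in this last list.

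The 4 ascorbate peroxidase 2 models were present in both tissues. Glyma.19G051400.1 had 4.84 and 19.8 RPKM in SC100 CT and 12.8 and 31.3 RPKM in SC25 CT, against 4.03 and 5.21 RPKM in C25 CT and 0.846 and 2.15 RPKM in C100 CT. Its seed coat replicates lay far apart, and neither tissue difference passed edgeR's test (adjusted p = 0.0716 for SC25 and 0.126 for SC100). Both depended on the setting, since DESeq2 called the first (adjusted p = 0.0327) and library totals without TMM (adjusted p = 0.0275) or leaving out SC100 CT replicate 1 (adjusted p = 0.0247) the second. The study lists Glyma.09G022300.1 and Glyma.13G167100.1, described above, and a pair of members that were weakly expressed here. Glyma.01G027000.1 had 1 count in all 18 libraries, and Glyma.01G070200.1 had between 0.0237 and 0.997 RPKM.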

How the data were processed

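Total RNA (CT) and ribosome footprints (FP) of soybean seed coats and cotyledons were sequenced. Per the paper's methods, the authors trimmed reads, aligned them without mismatches to the Wm82.a2 cDNA models with Bowtie 1 (up to 25 alignments per read), removed ribosomal DNA models and deposited a raw count and the cDNA length for each of 88515 models. Reads with several alignments were thus counted more than once. Groups came from the labels, which call the replicates biological. C100 FP and C300 FP replicate 2 were not analysed here.

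RPKM and TE were computed from the counts with Python 3.11.15 and pandas 2.3.3. Counts were tested with edgeR 4.0.16 in R 4.3.3, in 1 fit of the 10 CT libraries, 1 fit of 6 FP libraries, fits of 4 libraries for FP against CT and fits of 8 libraries for interactions, with at least 10 counts summed over the fit and an adjusted p threshold of 0.05. The fits were also run on simulated counts with a common spread for all models. Since the libraries here differ in spread, that run does not show how the tests behave on them. DESeq2 1.42.0, other scalings, filters, a replicate block and leaving out each library were alternatives. FP and CT of the same number share powdered tissue. Their deviations from group means correlated at 0.265 in SC25, 0.185 in SC100 and -0.0057 in C25.

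The members and lists were chosen with earlier results of these data known. Members named were the 5 highest per group, the 5 largest and 5 smallest called and non-overlapping fold changes of the tissue and seed coat stage comparisons in CT and the 3 largest and 3 smallest of the others, and those the study names. Members named beyond these were chosen after their values were seen. Model names could not be matched to a reference table, and positions and sequences are not given.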

Additional observations from a re-analysis of the deposited data

Results flagged for a closer look

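The levels of Glyma.15G050800.1 lay on opposite sides at the 2 stages, below the cotyledon early, where the difference did not pass edgeR's test, and above it at the mid stage, where it did. In CT it had 5.13 and 6.25 RPKM in SC25, against 10.2 and 13.04 RPKM in C25, with a log2 fold change of -0.95 (adjusted p = 0.103). It had 9.86 and 8.42 RPKM in SC100, against 1.59 and 1.73 RPKM in C100, with a log2 fold change of 1.55 (adjusted p = 0.0151). Every SC25 library lay below every C25 library and every SC100 library above every C100 library. The difference between the stages was not tested.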

How the results depend on the processing

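Of 147 counts of called members under alternatives, 103 stayed within 1.5 times the value reported. With DESeq2, 3 members were called for FP over CT in SC100 and 6 in C25. Of all models it called 0.844% higher and 0.193% lower in SC100, and 3.61% higher and 1.61% lower in C25. On library totals without TMM, 3 were called for C100 over C25 in CT, 1 for FP over CT in SC100, 24 in C25, 17 for SC25 FP over C25 FP and 1 for the interaction of SC25 and C25. Of all models, 0.116% were then higher and 0.959% lower for C100 over C25, and 0% and 4.8% for FP over CT in SC100. The shares were 0.712% and 87.9% in C25, 11.6% and 1.32% for SC25 FP over C25 FP, and 0.00461% and 0.06% for the interaction. With models of 1 count let in, 2 were called for SC100 over SC25 in CT, 2 for C100 over C25, 1 for C300 over C100, 13 for SC25 FP over C25 FP, 3 for SC100 FP over SC25 FP and 4 for the interaction of SC25 and C25. Of all models, 0.322% were then higher and 1.77% lower for SC100 over SC25, and 1.04% and 0.296% for C100 over C25. For C300 over C100 the shares were 0.399% and 0.106%, and for SC25 FP over C25 FP 4.73% and 4.24%. They were 0.238% and 0.338% for SC100 FP over SC25 FP, and 0.0214% and 0.842% for the interaction. For C100 over C25, 0 were called with at least 10 counts in 2 libraries, 0 with primary models only and 12 with only the 4 libraries compared. This last setting called 11.3% of all models higher and 8.87% lower there. It gave 1 member for C300 over C100, against 2.61% higher and 2.18% lower of all models. For SC25 FP over C25 FP it gave 1, against 0.0774% higher and 1.95% lower.

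With the replicate block, 2 were called for FP over CT in SC100, 4 for the interaction of SC25 and C25, 6 for SC25 FP over C25 FP and 0 for C100 over C25, and no other count moved by over 1.5 times. For SC25 FP over C25 FP, 2.68% of all models were then higher and 4.42% lower. Between tissues or stages the labels give the replicates only a shared number. In those comparisons and in the interactions the block thus does not stand for shared powder alone. Deviations of the same number nevertheless correlated at between -0.1995 (C300 CT with SC25 FP) and 0.377 (SC100 FP with SC25 FP).

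Leaving out 1 library gave between 9 and 34 members for SC25 over C25 in CT, 6 and 20 for SC100 over C100, 0 and 6 for SC100 over SC25, 0 and 1 for C100 over C25, 0 and 2 for FP over CT in SC25, 0 and 12 in SC100, 6 and 12 in C25, 1 and 8 for SC25 FP over C25 FP, and 0 and 4 for the interaction of SC25 and C25. A group left with 1 library was assumed to vary like the others.

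Of 24 calls of named members, 11 held under all alternatives. On library totals 3 calls for FP over CT in C25 reversed, with log2 fold changes of -0.83 for Glyma.12G241800.1, -1.42 for Glyma.14G053700.1 and -0.65 for Glyma.19G051400.1, since the totals leave out the TMM factors. The cause of the other changes was not tested. On totals the calls over all models for SC100 over C100 were 4867 higher and 1122 lower, against 2643 and 3294 with TMM. With 2 libraries a group, p-values measure the spread between these samples only, and members under 10 summed counts were not tested.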
